A study of Mus musculus with 12 samples.

Results

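Annexin A1 (Anxa1) and S100a10 were followed in mouse skin after a thermal injury. The probe annotation named 1 of these 2 genes, and no other, for 5 of the 7275 probe sets on the array: 3 for Anxa1 and 2 for S100a10. Total RNA had been hybridised to 12 Affymetrix arrays, 1 per sample, with 3 arrays for skin taken 0 hours, 2 hours, 3 days or 14 days after injury. The labels give no strain, age or depth of wound, and do not state whether the 0 hours skin had been heated or whether repeats were separate mice. All p-values therefore rest on the spread among these arrays alone, and that spread may be technical. Values are signal intensities as deposited, on a linear scale, and changes are differences of mean log2 signal with the standard error (SE) of a limma fit over 3477 genes.

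Annexins are proteins that bind acidic phospholipids in the presence of calcium, through a core of repeated helical domains. Annexin A1 was first described as a glucocorticoid-induced inhibitor of phospholipase A2, and acts outside the cell on formyl peptide receptors to limit the recruitment of neutrophils. S100a10, also called p11, is a member of the S100 family that has lost the ability to bind calcium. It forms a heterotetramer with annexin A2 that lies under the plasma membrane and binds plasminogen at the cell surface. In skin, annexin A1 and annexin A2 are abundant in keratinocytes, and annexin A1 is also abundant in neutrophils and macrophages.

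Both genes were highest at 2 hours. Anxa1 was 1.74-fold and S100a10 1.81-fold above 0 hours, and both rises were called at an adjusted p under 0.05, the threshold used throughout. Of all 3477 genes tested, 5.67% were called at 2 hours, and 4% were called as higher. Read from its main probe set, neither gene was called at 3 days or at 14 days, when the fit called 13.3% and 10.2% of all genes. The S100a10 signal fell again from 2 hours to 3 days and to 14 days by the test, whereas the lower Anxa1 signal at those times was not called. Another Anxa1 probe set, 93037_i_at, was called above 0 hours at 2 hours, 3 days and 14 days. Of 17 other ways of processing the arrays, 9 kept the call of Anxa1 at 2 hours and 11 that of S100a10, and all kept the direction. These ways include each of the other Anxa1 probe sets, chosen after seeing the data, which left the S100a10 values unchanged. Among them 93037_i_at also entered as the probe set with the highest variance.

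Array medians lay between 448.4 and 496.4 signal units. Spearman correlations were 0.876 to 0.960 between arrays of the same time point and 0.803 to 0.940 between time points. The log2 ratio of the 3′ to the 5′ Gapdh control probe set, a measure of RNA quality, went from 1.99 ± 0.29 (SD of 3 arrays) in 0 hours skin to 1.54 ± 0.46 by 2 hours, 0.52 ± 0.50 by 3 days and 0.21 ± 0.08 by 14 days. The labelled tissue was checked against keratinocyte genes. Of 9 differentiated keratinocyte markers with a probe set 1, Tgm3, was under the floor on every array, and the summed signal of the 9 was at least 35557 units on every array. The skeletal muscle markers were also bright, with a summed signal over 23 genes of 306155 to 499462 at 0 hours, 270455 to 314334 by 2 hours and 111741 to 237085 by 3 days. Of the 21 tested, 3 fell at 2 hours, when Anxa1 and S100a10 rose and 5.67% of all genes were called. With the mean of these markers as a covariate the changes at 2 hours were 0.69 for Anxa1 and 0.88 for S100a10, neither called (limma adjusted p = 0.13 and 0.082). In whole tissue, a change in the share of a cell type and a change of RNA within it cannot be told apart.

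Anxa1 was read from its brightest probe set, 93038_f_at. Its signal was 5808, 8729 and 6274 at 0 hours and 11566, 9960 and 14574 at 2 hours. It was 8340, 8877 and 8409 at 3 days and 8199, 7148 and 8975 at 14 days. Every 2 hours array was above every array of the other times, and the 0 hours arrays overlapped with those at 3 days and 14 days. Such separation of arrays, here and below, only describes the values, and its share among all genes was not counted. At 2 hours Anxa2, Anxa5 and Anxa8 separated from 0 hours in the same way and were not called. The log2 change was 0.80 ± 0.20 at 2 hours (limma adjusted p = 0.036), 0.32 ± 0.20 at 3 days (adjusted p = 0.31) and 0.24 ± 0.20 at 14 days (adjusted p = 0.48), the last 2 not called.

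In the order of mean log2 signal, Anxa1 ran from 2 hours (13.54 ± 0.28, SD, n = 3) over 3 days (13.06 ± 0.05) and 14 days (12.98 ± 0.17) to 0 hours (12.74 ± 0.31). No neighbours in this order differed by the fit, with limma adjusted p of 0.16, 0.95 and 0.48. From 2 hours to 14 days the difference was −0.56 ± 0.20 (adjusted p = 0.088). An F-test of any change with time in the same limma fit gave Anxa1 an adjusted p of 0.0504, just above the threshold.

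Anxa1 at 2 hours was no longer called when 1 of 5 arrays was left out, namely 0 hours replicate 1 (change 0.68, limma adjusted p = 0.10), 0 hours replicate 3 (0.74, 0.096), 2 hours replicate 1 (0.82, 0.081), 2 hours replicate 3 (0.65, 0.16) or 3 days replicate 2 (0.80, 0.053). Its size stayed between 0.65 and 0.98 when any single array was left out.

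The other probe sets of Anxa1 were dimmer. Probe set 161703_f_at read 2987, 5740 and 3888 at 0 hours, 8873, 4975 and 6997 at 2 hours, 5961, 6548 and 5604 at 3 days, and 5026, 2924 and 5642 at 14 days. Its values at 0 hours and 2 hours overlapped, and its change of 0.74 ± 0.29 at 2 hours was not called (limma adjusted p = 0.15, fitted over 3815 probe sets). Probe sets ending in _f_at hold probes shared with related sequences, so these readings may include transcripts other than Anxa1.

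The dimmest, 93037_i_at, read 371, 523 and 454 at 0 hours and 1119, 1106 and 980 at 2 hours. It read 1250, 828 and 875 at 3 days and 868, 595 and 832 at 14 days. Here every array after injury was above every 0 hours array. The changes were 1.26 ± 0.22 at 2 hours (limma adjusted p = 0.0038), 1.12 ± 0.22 at 3 days (0.0045) and 0.76 ± 0.22 at 14 days (0.037). Of all probe sets in that fit, 5.71%, 13.7% and 11.5% were called in these 3 comparisons.

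The calls at 2 hours and 3 days held with any single array left out. That at 14 days was lost in 4 of 12 cases, without 0 hours replicate 1, 0 hours replicate 3, 14 days replicate 1 or 14 days replicate 3 (adjusted p up to 0.14).

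The probe sets of Anxa1 thus gave the same direction at 2 hours and unequal values at 3 days, where 93037_i_at stood 0.80 further above 0 hours than 93038_f_at. Over the 4 time points this difference between probe sets gave an exact permutation p of 0.0501 (1-sided in F, 15400 assignments of the arrays), or 0.15 adjusted over the 3 pairs of probe sets. These pairs were compared after their values were seen. Over the 12 arrays, which share the time points, the 3 probe sets had pairwise Pearson correlations of 0.73, 0.73 and 0.81.

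**Figure D1:**
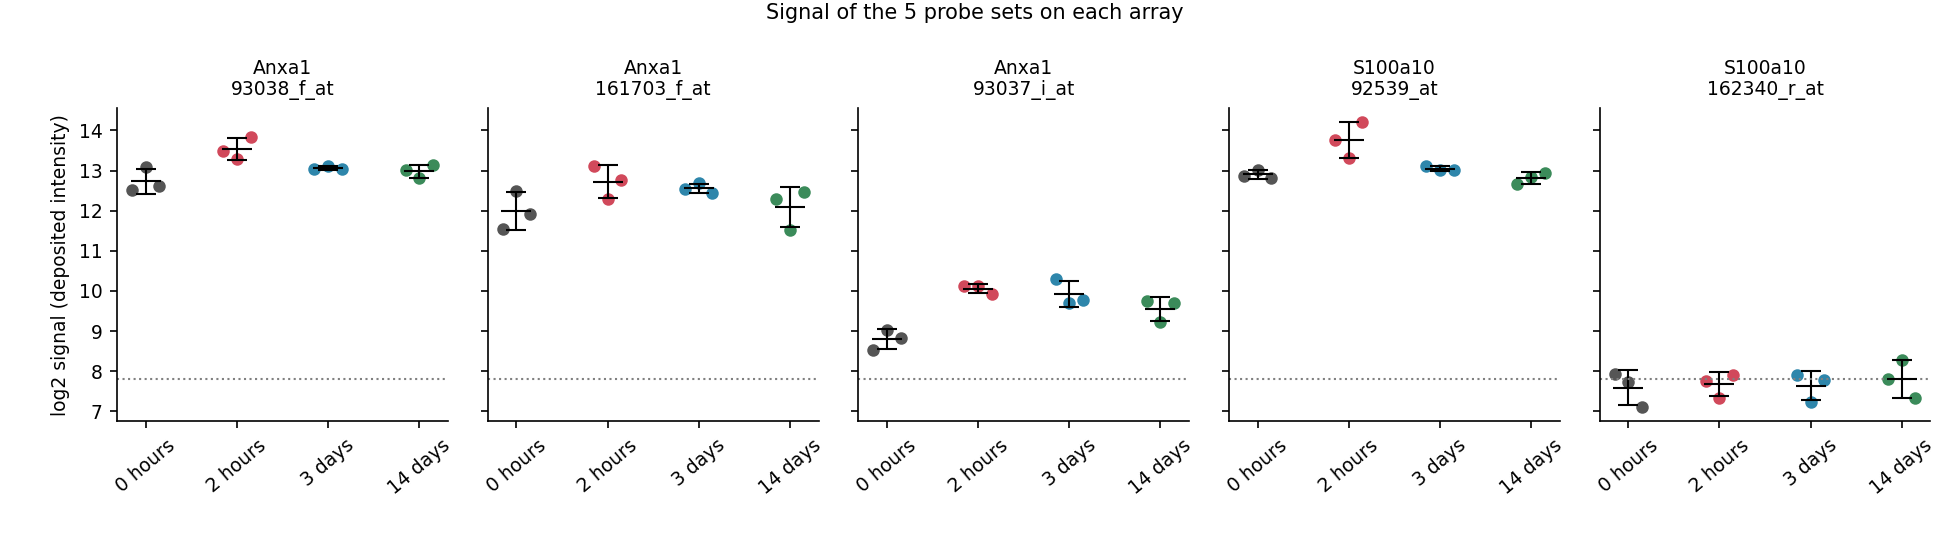
Log2 signal (vertical axis, deposited intensity) of the 3 Anxa1 and 2 S100a10 probe sets at each time point. Points are arrays, bars are the mean ± SD of 3 arrays, and the dotted line is the floor of 225.375 signal units; 93038_f_at, 93037_i_at and 92539_at lie higher at 2 hours than on any 0 hours array, and 162340_r_at lies around the floor.

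S100a10 was read from probe set 92539_at. Its signal was 7467, 8303 and 7234 at 0 hours and 13929, 10093 and 18777 at 2 hours. It was 8841, 8272 and 8318 at 3 days and 6474, 7338 and 7915 at 14 days. The 3 arrays at 2 hours were above all others and spread widely, and the 14 days arrays were all below the 3 days arrays. The log2 change was 0.85 ± 0.21 at 2 hours (limma adjusted p = 0.032), 0.15 ± 0.21 at 3 days (0.69) and −0.08 ± 0.21 at 14 days (0.84), the last 2 not called.

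By mean log2 signal, S100a10 ran from 2 hours (13.75 ± 0.45, SD, n = 3) over 3 days (13.05 ± 0.05) and 0 hours (12.90 ± 0.10) to 14 days (12.82 ± 0.15). From 2 hours it fell by 0.71 ± 0.21 to 3 days (limma adjusted p = 0.0498) and fell by 0.94 ± 0.21 to 14 days (0.011), comparisons in which 9.4% and 12.3% of all genes were called. The other neighbours in this order were not called, nor was 14 days against 3 days (−0.23 ± 0.21, adjusted p = 0.81, with 3.39% of all genes called). The F-test of any change with time called S100a10 (limma adjusted p = 0.017), and of the 6 other tested annexins it called Anxa8 (0.045). The share of all genes called by this F-test was not counted.

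The rise of S100a10 at 2 hours was not called without 0 hours replicate 1 (0.83, limma adjusted p = 0.064), 0 hours replicate 3 (0.81, 0.082), 2 hours replicate 1 (0.85, 0.082) or 2 hours replicate 3 (0.63, 0.15). The fall to 3 days, at the edge of the threshold, kept its call in 2 of 12 cases, without 0 hours replicate 3 or 2 hours replicate 2, and was −0.48 without 2 hours replicate 3. The fall to 14 days lost its call without 2 hours replicate 3 (−0.72, adjusted p = 0.058) or 14 days replicate 1 (−0.86, 0.059).

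The second S100a10 probe set, 162340_r_at, read between 138 and 310 units on the 12 arrays. It did not pass the filter, which required 475.55 units on at least 3 arrays, and was not tested. Thus 4 of the 5 probe sets passed.

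**Figure D2:**
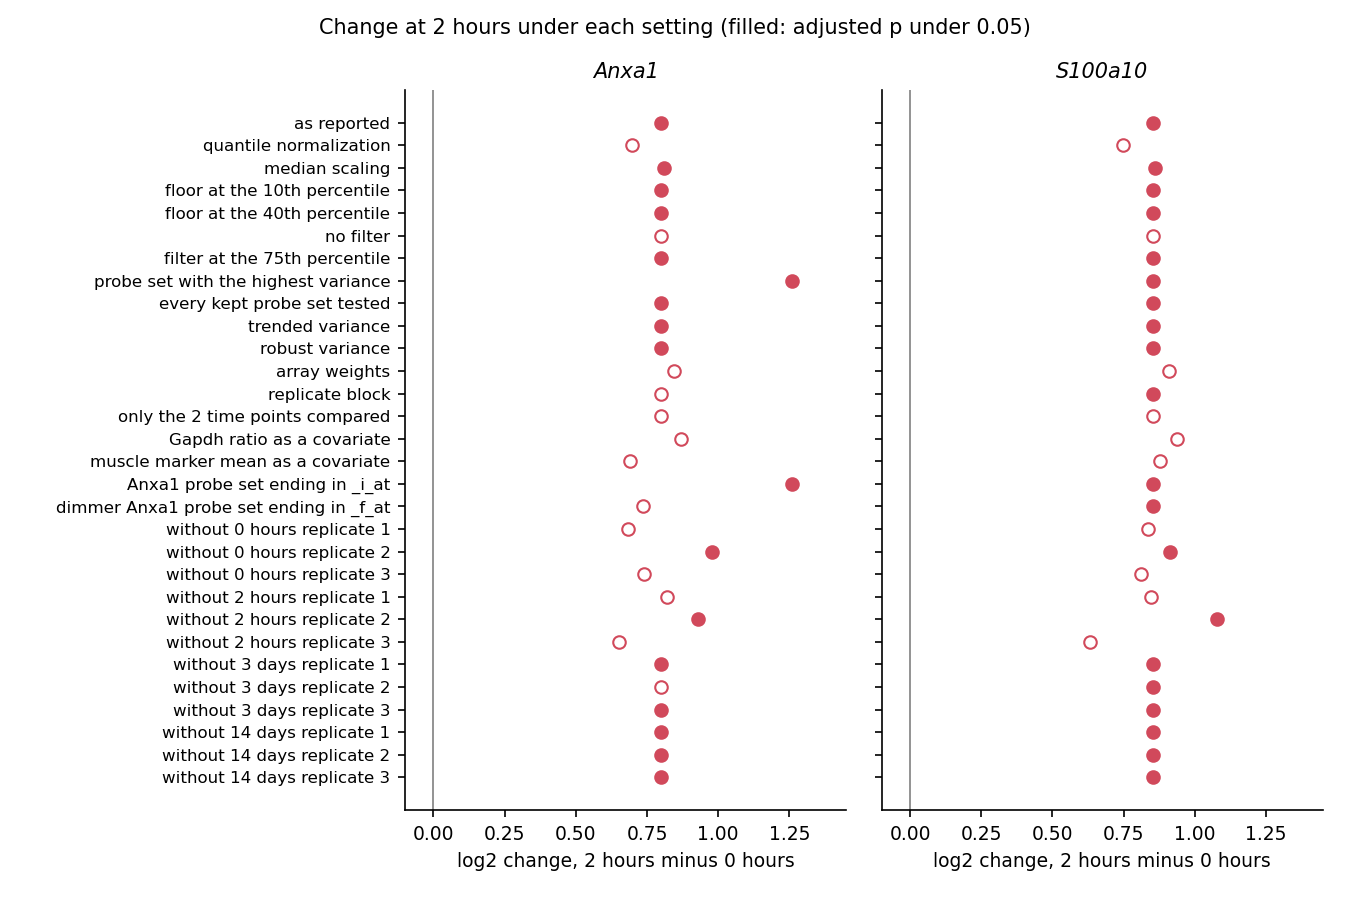
Log2 change from 0 hours to 2 hours (horizontal axis) of Anxa1 and S100a10 as reported and under each other processing or with 1 array left out. Filled points were called at an adjusted p under 0.05 and open points were not; all lie above 0, from 0.65 to 1.26 for Anxa1 and from 0.63 to 1.08 for S100a10.

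The rises of Anxa1 and S100a10 at 2 hours were compared within arrays. The log2 difference between them within an array changed by 0.05 from 0 hours to 2 hours, by −0.18 to 3 days and by −0.33 to 14 days, and a difference between time points was not shown (exact permutation p = 0.12, 1-sided in F, n = 12 arrays). Without 0 hours replicate 2 that p was 0.045. With 93037_i_at for Anxa1, the probe set with the highest variance, the change at 2 hours was −0.41 in place of 0.05. Over the 12 arrays their Pearson correlation was 0.87 and Spearman's rho 0.80. After removal of each time point's mean, r was 0.72, so arrays of 1 time point with more Anxa1 signal tended to have more S100a10 signal. S100a10 ranked 11 of 3476 genes by its correlation with Anxa1.

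Of the other annexins, 7 had a probe set of their own: Anxa2, Anxa3, Anxa4, Anxa5, Anxa6, Anxa7 and Anxa8. The signal of Anxa7 lay between 255 and 511 units and did not pass the filter, which left 6 tested. None of the 6 was called against 0 hours by limma at 2 hours, 3 days or 14 days, and 1, 0 and 0 had an unadjusted p under 0.05. With 5.67%, 13.3% and 10.2% of all genes called in these comparisons, a count of 0 among 6 is near the background. Their median log2 change was 0.23, 0.23 and −0.10, against 0.05, 0.02 and 0.05 for all genes tested.

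Anxa2, the partner of S100a10, read 20220, 23591 and 18019 at 0 hours and 24543, 24400 and 26056 at 2 hours. It read 25163, 24854 and 22803 at 3 days and 23926, 16790 and 19112 at 14 days. Its 2 hours arrays were all above its 0 hours arrays, but by little: the change was 0.29 ± 0.18 (limma adjusted p = 0.39), then 0.24 ± 0.18 at 3 days (0.40) and −0.05 ± 0.18 at 14 days (0.89).

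Anxa8, an annexin of stratified epithelia, read 13342, 13112 and 14380 at 0 hours and 18205, 23976 and 22818 at 2 hours. It read 14704, 14458 and 10629 at 3 days and 9393, 10869 and 16646 at 14 days. All 2 hours arrays were above all others. The change of 0.66 ± 0.23 at 2 hours was not called (limma adjusted p = 0.0998), while Anxa8 fell by 0.85 ± 0.23 from 2 hours to 14 days (0.025). It was the only 1 of the 6 called in any comparison of time points as reported, and that call was lost without 2 hours replicate 2, 2 hours replicate 3, 14 days replicate 1 or 14 days replicate 2 (adjusted p up to 0.13). In that comparison 12.3% of all genes were called, so a count of 1 among 6 is near the background.

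The remaining annexins had smaller estimates than Anxa1 at 2 hours, none of them called. Anxa5, a phosphatidylserine-binding annexin, read 4292 to 4600 at 0 hours and 4695 to 5450 at 2 hours, a change of 0.16 ± 0.17 (limma adjusted p = 0.60). Anxa4 changed by 0.17 ± 0.22 (0.70) and Anxa3 by 0.39 ± 0.26 (0.41). Anxa6, which carries a doubled annexin core, had a change of −0.12 ± 0.29 at 2 hours (0.84) and −0.59 ± 0.29 at 14 days (0.20), the lowest of the 6 at both times.

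**Figure D3:**
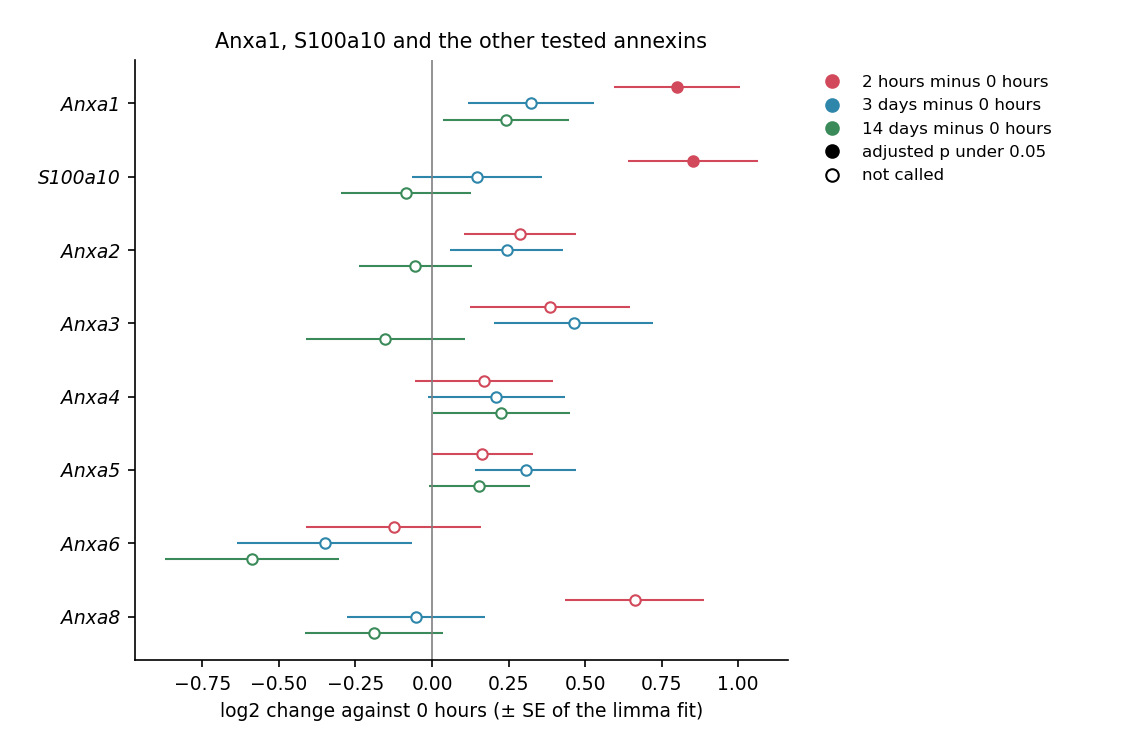
Log2 change against 0 hours (horizontal axis) of Anxa1, S100a10 and the 6 other tested annexins at 2 hours, 3 days and 14 days. Points are limma estimates with bars of 1 SE, filled where called; the filled points are those of Anxa1 (0.80) and S100a10 (0.85) at 2 hours.

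Whether Anxa1 or S100a10 moved unequally with another annexin was tested on the log2 difference within each array, over 12 pairs with p-values adjusted over these pairs. S100a10 differed from Anxa4 and from Anxa5 across the time points, with an adjusted p of 0.030 for each (exact permutation test, 1-sided in F, unadjusted p = 0.0035 and 0.0051). At 2 hours it had gained 0.68 on Anxa4 and 0.69 on Anxa5 relative to 0 hours. These 2 calls did not hold throughout: none of the 12 pairs was called without 0 hours replicate 1, 0 hours replicate 3, 2 hours replicate 3, or any 1 of the arrays at 3 days or 14 days.

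The pairs of Anxa1 with Anxa2, Anxa4 and Anxa5 had unadjusted p of 0.047, 0.046 and 0.020 and adjusted p of 0.11, 0.11 and 0.081 by the exact permutation test, and were not called. Anxa1 had gained 0.51, 0.63 and 0.64 on them at 2 hours. S100a10 gained 0.57 on its partner Anxa2 (adjusted p = 0.13). Against Anxa8, the gain at 2 hours was 0.14 for Anxa1 and 0.19 for S100a10 (adjusted p = 0.42 and 0.87).

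**Figure D4:**
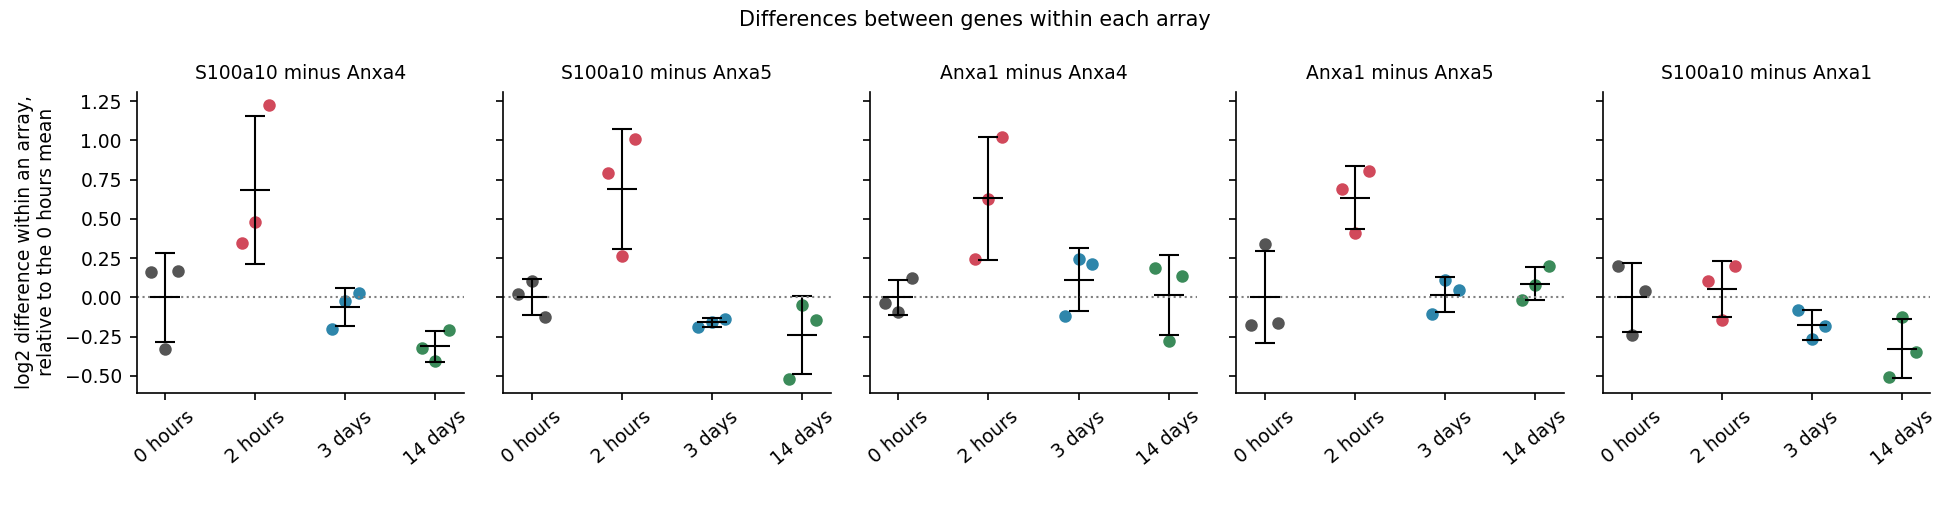
Log2 difference between 2 genes on the same array (vertical axis, relative to the mean at 0 hours) for 5 pairs at each time point, with points for arrays and bars for mean ± SD of 3 arrays. The 2 hours arrays lie above the other times for S100a10 minus Anxa4 and S100a10 minus Anxa5, with means of 0.68 and 0.69, and the S100a10 minus Anxa1 values of 0 hours and 2 hours overlap.

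The proximal promoters of Anxa1, Anxa8 and Anxa2 are shown. Anxa1 was called at 2 hours against 0 hours, Anxa8 from 2 hours to 14 days, and Anxa2 in no comparison. The calls came from different comparisons, so these promoters do not divide annexins by a single test. They are the 250 bases before the RefSeq transcript start, from build GRCm38.p6, read 5′ to 3′ on the gene's strand: chr19:20390672-20390921 (minus strand) for Anxa1, chr14:34085729-34085978 (plus) for Anxa8 and chr9:69453433-69453682 (plus) for Anxa2. Capitals mark matches, on either strand, to a TATA box (TATAAA), heat shock elements (GAANNTTC or TTCNNGAA), an AP-1 site (TGANTCA), a glucocorticoid receptor half-site (AGAACA) or a CCAAT box (CCAAT).
Anxa1: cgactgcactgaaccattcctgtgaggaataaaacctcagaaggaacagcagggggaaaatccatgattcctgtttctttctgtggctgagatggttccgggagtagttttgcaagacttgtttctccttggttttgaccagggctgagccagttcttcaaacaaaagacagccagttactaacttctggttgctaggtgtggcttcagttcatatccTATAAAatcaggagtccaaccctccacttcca
Anxa8: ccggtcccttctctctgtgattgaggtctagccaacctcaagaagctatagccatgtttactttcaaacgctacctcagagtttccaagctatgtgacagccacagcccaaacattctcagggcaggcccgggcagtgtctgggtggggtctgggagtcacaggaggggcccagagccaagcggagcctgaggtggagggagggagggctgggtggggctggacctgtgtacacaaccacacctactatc
Anxa2: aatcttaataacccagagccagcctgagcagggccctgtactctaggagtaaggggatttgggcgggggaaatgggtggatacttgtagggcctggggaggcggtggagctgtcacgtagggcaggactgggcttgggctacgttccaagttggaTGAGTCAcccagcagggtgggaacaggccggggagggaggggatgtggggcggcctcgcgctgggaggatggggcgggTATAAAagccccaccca

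The Anxa1 window held 1 TATAAA, beginning 32 bases before the start, and none of the other motifs. The Anxa2 window held a TATAAA and 1 AP-1 match, TGAGTCA, beginning 95 bases before the start, and the Anxa8 window held no match. The windows of Anxa4 and Anxa5, which were tested and not called, held no match either. Among 32851 RefSeq windows of the same length, 12.4% held TATAAA, 6.69% GAANNTTC, 7.17% TTCNNGAA, 6.75% TGANTCA, 16.1% AGAACA and 33.8% CCAAT. A match describes letters only.

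Other S100 genes were compared with S100a10. Of 8 tested, none rose at 2 hours and 1 fell, 2 rose and 1 fell at 3 days, and 1 rose and 1 fell at 14 days, beside 5.67%, 13.3% and 10.2% of all genes called. The list median was 0.05, −0.01 and 0.11, close to that of all genes. S100a8 and S100a9, the calgranulins of neutrophils and activated keratinocytes, rose at least 30.6-fold and at least 17.8-fold at 3 days, with 1 and 3 of the 0 hours arrays under the floor. At 2 hours neither was called (limma adjusted p = 0.28 and 0.37), and 1 of the 2 hours arrays of S100a9 was also under the floor.

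S100a3, a hair cuticle protein, was at least 2.87-fold lower at 2 hours (limma adjusted p = 0.042) and at least 3.07-fold lower at 3 days (0.017), with 1 and 2 arrays of those times under the floor, and rose by 1.83 ± 0.41 at 14 days (0.013). The call at 2 hours was lost in 7 of 12 cases with an array left out, any 1 of the 2 hours arrays among them. That at 3 days was lost without 0 hours replicate 2, 0 hours replicate 3, 3 days replicate 2 or 3 days replicate 3, and that at 14 days without 0 hours replicate 1 or 14 days replicate 3. S100a13 fell by 0.64 ± 0.17 at 14 days, a call lost in 4 of 12 cases, without 0 hours replicate 1 or any 1 of the 14 days arrays (limma adjusted p up to 0.079). S100a6, a calcium-binding member of the family, read 12545 to 19321 at 0 hours and 14828 to 18219 at 2 hours, and changed by 0.11 ± 0.20 (adjusted p = 0.80). Whether the time course of S100a10 differed from those of these genes was not tested.

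The receptors of annexin A1 and the enzymes of the phospholipase A2 pathway gave little signal. Of 16 genes in this list, 4 had a probe set of their own and none passed the filter. Fpr2, a formyl peptide receptor that binds annexin A1, was under the floor on all 12 arrays, at 5 to 162 units. Pla2g4a, the cytosolic phospholipase A2, read 111 to 317 units. Pla2g7, the platelet-activating factor acetylhydrolase, read 107 to 265 units at 0 hours, 172 to 248 at 2 hours, 244 to 562 at 3 days and 257 to 380 at 14 days, so all its arrays at the last 2 times were above the floor. Ptgs2, the inducible cyclooxygenase, was above the floor only on 3 days replicate 3, at 649 units.

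Of 10 listed genes around plasminogen activation, which S100a10 assists at the cell surface, 4 were tested. At 2 hours 1 rose, at 3 days 2 rose, and at 14 days none was called by limma (2 with an unadjusted p under 0.05), with list medians of 0.45, 1.01 and 0.11. In these comparisons 5.67%, 13.3% and 10.2% of all genes were called. Serpinb2, an inhibitor of plasminogen activators, read 1628, 2589 and 1837 at 0 hours and 4754, 4491 and 4101 at 2 hours, without overlap. It rose by 1.17 ± 0.29 at 2 hours (limma adjusted p = 0.033) and by 1.03 ± 0.29 at 3 days (0.032). The first call was lost without any 1 of the 2 hours arrays, 0 hours replicate 1 or 0 hours replicate 3 (adjusted p up to 0.096). The second was lost without 0 hours replicate 1, 0 hours replicate 3 or 3 days replicate 3, where the change was 0.62.

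The other gene called at 3 days, Serpina3n, an inhibitor of the antichymotrypsin type that is not known as a plasminogen activator or its receptor, rose by 1.10 ± 0.23 at 3 days (limma adjusted p = 0.0066). Plat, the tissue plasminogen activator, changed by 0.32 ± 0.33 at 2 hours and 0.99 ± 0.33 at 3 days (adjusted p = 0.61 and 0.058). Plau, the urokinase, lay at 70 to 252 units and its receptor Plaur at 94 to 806 units, and neither passed the filter.

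Among 6 tested partners of S100a10 and genes of membrane repair, 1 rose at 2 hours, none was called at 3 days by limma (4 with an unadjusted p under 0.05) and 2 fell at 14 days, with list medians of −0.17, −0.17 and −0.07. The shares of all genes called were 5.67%, 13.3% and 10.2%. Cav1, the coat protein of caveolae, read 2834, 1871 and 1660 at 0 hours and 4132, 5016 and 5385 at 2 hours. Cav1 rose by 1.22 ± 0.28 (limma adjusted p = 0.021), a call lost without 0 hours replicate 3, 2 hours replicate 2 or 2 hours replicate 3 (adjusted p up to 0.089). Ahnak, a giant scaffold protein that binds the S100a10 and annexin A2 complex, changed by 0.02 ± 0.19 at 2 hours and −0.52 ± 0.19 at 3 days (adjusted p = 0.95 and 0.079).

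Cav3 and Capn3, the muscle forms of caveolin and calpain, fell by 0.82 ± 0.23 and 0.96 ± 0.27 at 14 days (limma adjusted p = 0.032 and 0.033). The call of Cav3 was lost without 0 hours replicate 1, 0 hours replicate 2, 14 days replicate 1 or 14 days replicate 3, and that of Capn3 without 0 hours replicate 1, 14 days replicate 1 or 14 days replicate 2. The summed signal of 23 skeletal muscle markers was 306155 to 499462 at 0 hours and 154079 to 220424 at 14 days, and its part in these falls was not tested.

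Because Anxa1 is known as a glucocorticoid-induced gene, 14 glucocorticoid-responsive genes were listed, of which 13 had a probe set and 12 were tested. At 2 hours 7 of the 12 rose and none fell, beside 5.67% of all genes called. The median log2 change was 1.44 against 0.05 for all genes. The other tested genes of the list, Nfkbia, Ddit4, Per1, Klf9 and Dusp1, were not called at 2 hours, with limma adjusted p from 0.12 to 0.51. The list was chosen with earlier results of these data known, so its count of called genes is a description. The list had 2 genes that rose at 3 days and 2 that fell at 14 days, beside 13.3% and 10.2% of all genes called. Its medians at these times were 0.50 and 0.04. Among the 7 were the metallothioneins Mt1 (3.13 ± 0.23, limma adjusted p = 1.9e-06) and Mt2 (2.35 ± 0.20, 9.3e-06). They also included the transcription factors Zbtb16 (2.33 ± 0.42, 0.0047) and Cebpd (1.78 ± 0.28, 0.0021), Errfi1, a feedback inhibitor of the EGF receptor (2.22 ± 0.37, 0.0028), and Fkbp5, a co-chaperone of the glucocorticoid receptor (1.64 ± 0.27, 0.0028). Several of these genes, the metallothioneins among them, are also known as stress-induced genes. Whether the change of Anxa1 differed from theirs was not tested. The calls of these 6 at 2 hours held with any single array left out. The seventh, the kinase Sgk1 (1.25 ± 0.27, adjusted p = 0.017), lost its call without 2 hours replicate 3 (0.078). From 2 hours to 14 days 8 of the 12 fell, beside 12.3% of all genes called. Cebpd at 14 days was 1.00 ± 0.28 below 0 hours (limma adjusted p = 0.036). That call was lost without 0 hours replicate 1, 3 days replicate 2, 14 days replicate 1 or 14 days replicate 2.

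**Figure D5:**
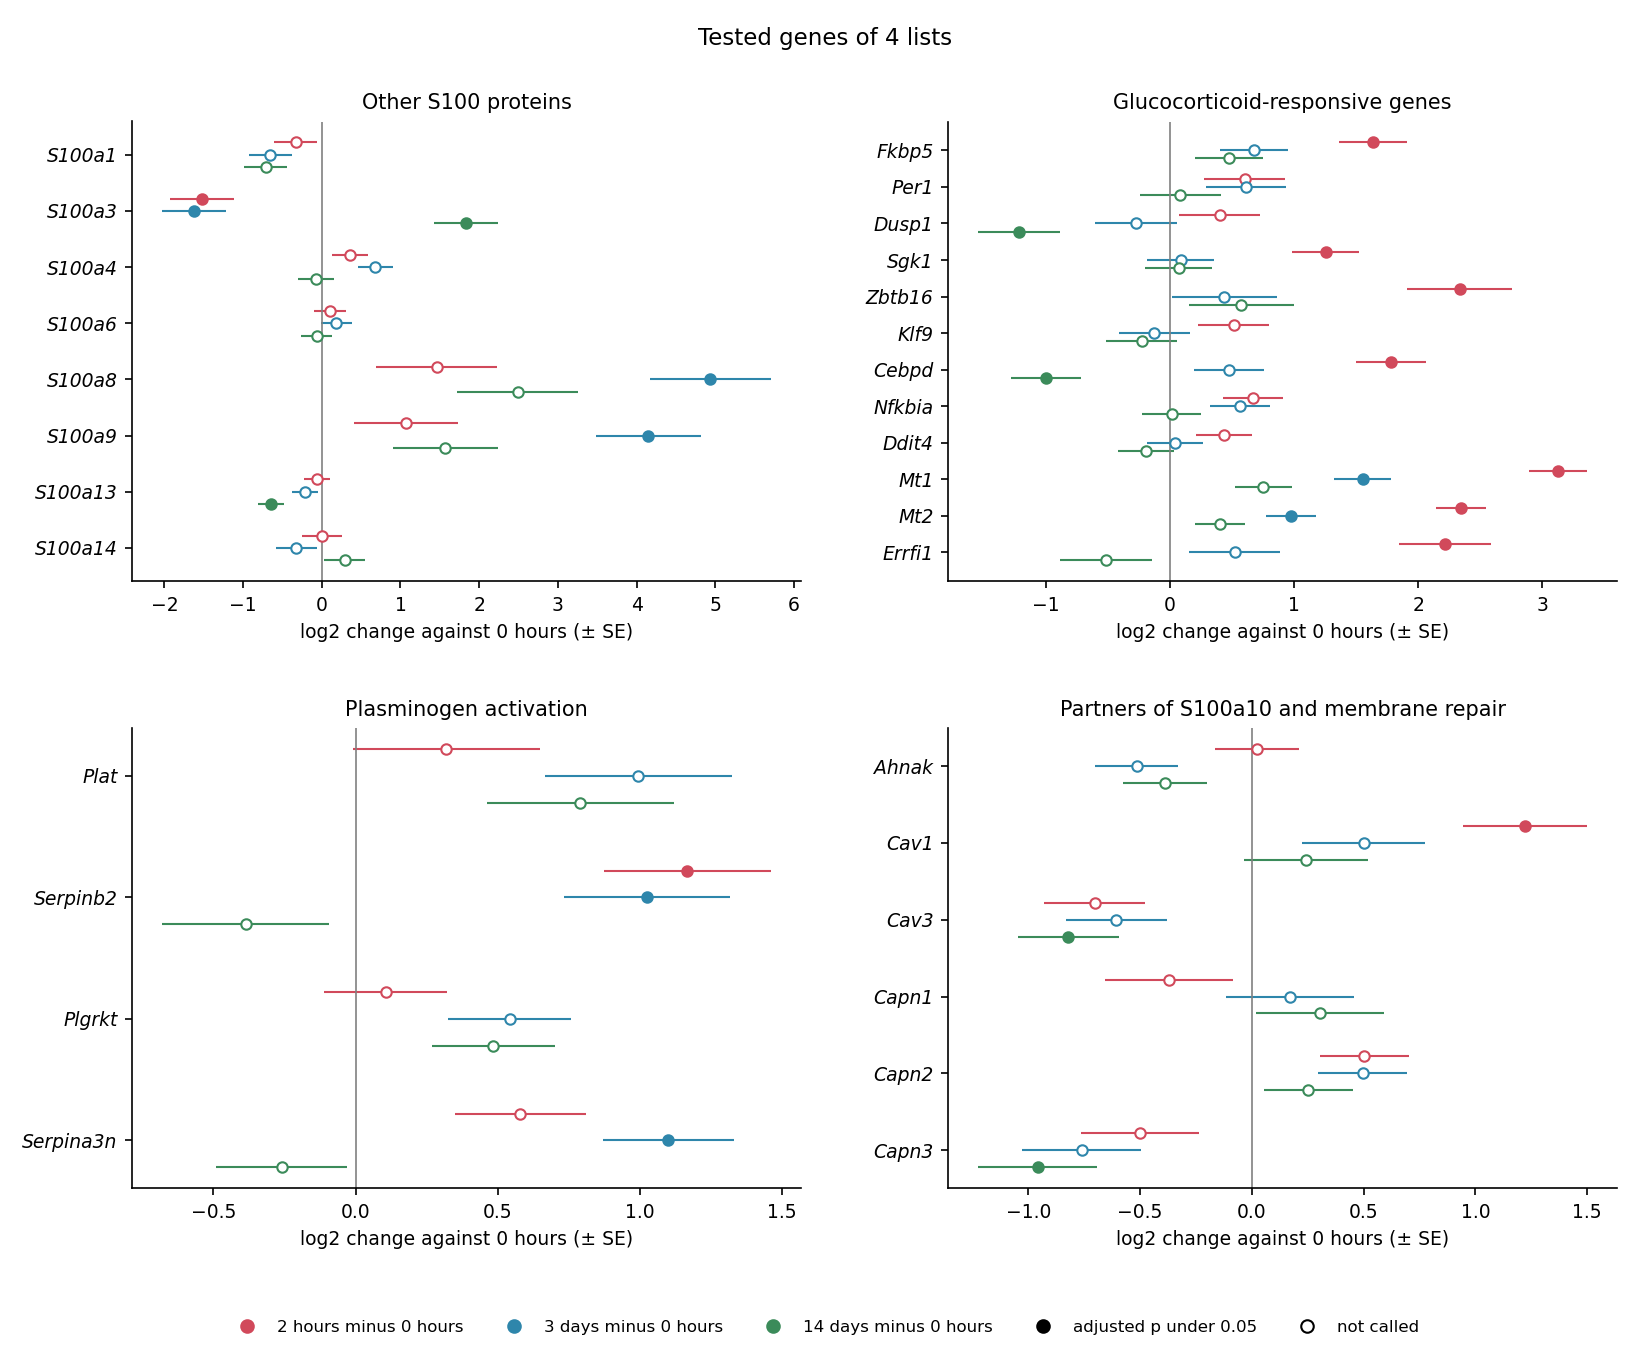
Log2 change against 0 hours (horizontal axis, different ranges) of the tested S100, glucocorticoid-responsive, plasminogen and partner or membrane repair genes at 2 hours, 3 days and 14 days. Points are limma estimates with bars of 1 SE, filled where called; in the glucocorticoid panel 7 of 12 points at 2 hours are filled, and in the S100 panel S100a8 and S100a9 are filled at 3 days only.

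The genes most like Anxa1 over the 12 arrays, by Pearson correlation of log2 signal, were Col17a1 (0.92), Itga6 (0.91), Hopx (0.90), Acsl5 (0.90) and Gtpbp4 (0.90). Arrays share their time points, so these values describe a common course. Genes chosen for this likeness share the members' high signal at 2 hours by choice, and their changes and p-values below are descriptions. With the time point means removed they were 0.70, 0.87, 0.84, 0.86 and 0.65. Col17a1, a collagen of hemidesmosomes, read 5228, 7930 and 4135 at 0 hours and 11997, 10985 and 14547 at 2 hours, and rose by 1.16 ± 0.24 (limma adjusted p = 0.012). Without 2 hours replicate 3 the call of Col17a1 was lost (adjusted p = 0.070). Itga6, the integrin subunit of the same structures, read 111, 485 and 176 units at 0 hours and 654, 440 and 779 at 2 hours. Its 0 hours replicates 1 and 3 were under the floor, and its change was not called (limma adjusted p = 0.072).

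Hopx, an atypical homeodomain protein, rose by 1.12 ± 0.23 at 2 hours (limma adjusted p = 0.011), and Gtpbp4, a GTPase of ribosome assembly, by 0.72 ± 0.17 (0.025). The call of Hopx was lost without 2 hours replicate 3, and that of Gtpbp4 without any 1 of the 2 hours arrays, 0 hours replicate 1 or 0 hours replicate 3 (adjusted p up to 0.11). Acsl5 changed by 0.77 at 2 hours and was not called (limma adjusted p = 0.12).

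The genes most like S100a10 were Emp1 (0.93), Cry1 (0.91), Fcf1 (0.90), Tax1bp1 (0.90) and Sowahc (0.90). Emp1, an epithelial membrane protein, read 5553, 7519 and 4737 at 0 hours and 12393, 11425 and 16251 at 2 hours. It rose by 1.18 ± 0.21 (limma adjusted p = 0.0042), and its changes at 3 days and 14 days, 0.28 and −0.21, were not called. Sowahc rose by 1.20 ± 0.18 (0.0016), and the calls of Emp1 and Sowahc at 2 hours held with any single array left out. The circadian repressor Cry1 rose by 0.88 ± 0.21 (0.028), a call lost without 0 hours replicate 1, 0 hours replicate 3, 2 hours replicate 1 or 2 hours replicate 3. Fcf1 and Tax1bp1 changed by 0.58 and 0.45 at 2 hours and were not called (limma adjusted p = 0.092 and 0.16). Among the 6 other annexins, Anxa8 had the highest Pearson correlation with S100a10 (0.75, rank 72 of 3476), which was 0.15 with the time point means removed, and by Spearman's rho Anxa2 (0.71) ranked above Anxa8 (0.70). Anxa2 had the highest Pearson correlation with Anxa1 (0.68, rank 208), whereas by Spearman's rho Anxa8 (0.71) ranked above Anxa2 (0.62).

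The summed signal of 8 basal keratinocyte markers was 15378 to 21995 at 0 hours, 24923 to 32611 at 2 hours, 24954 to 28912 at 3 days and 25170 to 33142 at 14 days. Of these 8, 1 rose at 2 hours (Col17a1), 3 at 3 days (Lama3, Jup and Sfn) and 2 at 14 days (Sfn and Jup). The shares of all genes called were 5.67%, 13.3% and 10.2%. Itgb4 changed by −0.16 at 2 hours and −0.72 at 14 days, neither called (limma adjusted p = 0.73 and 0.059). Krt5 and Krt14 were on the list of 13 genes but had no probe set of their own. The 2 hours signal of this list lay above that at 0 hours on every array, as for Anxa1 and S100a10, and its part in their rise was not tested. The list holds Col17a1 and Itga6, named above for their likeness to Anxa1. In the sum, Col17a1 alone made up 4135 to 7930 units at 0 hours and 10985 to 14547 at 2 hours.

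Mast cell, fibroblast and wound keratinocyte markers also separated 2 hours from 0 hours on every array. The 5 mast cell markers summed to 3017 to 3717 units at 0 hours and 5392 to 6158 at 2 hours, and 1 of 4 tested, the chymase Cma1, rose. The 12 fibroblast markers summed to 122630 to 138676 units at 0 hours and 79834 to 87596 at 2 hours, and 3 of 11 tested, the collagens Col1a1, Col1a2 and Col3a1, fell. At 2 hours 5.67% of all genes were called. The part of any of these lists in the changes of Anxa1 and S100a10 was not tested.

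The summed signal of 22 monocyte and macrophage markers was 19775 to 23577 at 0 hours, 15689 to 29505 at 2 hours, 54028 to 84036 at 3 days and 30333 to 33174 at 14 days. Of 18 tested, none was called by limma at 2 hours (3 with an unadjusted p under 0.05) and 17 rose at 3 days. The shares of all genes called at these times were 5.67% and 13.3%. The 6 neutrophil markers summed to 835 to 1460 units at 0 hours, 984 to 3858 at 2 hours and 7304 to 27492 at 3 days, and 3 of 3 tested rose at 3 days. S100a8 and S100a9 were among these 3 and are also calgranulins of activated keratinocytes. The highest summed signal of both lists was thus at 3 days. At that time Anxa1 by 93038_f_at and S100a10 were not called against 0 hours and Anxa1 by 93037_i_at was. The part of these cells in the Anxa1 signal was not tested. The summed signal of 11 wound keratinocyte markers was 19610 to 29838 at 0 hours, 35969 to 42339 at 2 hours and 139350 to 158156 at 3 days.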

How the data were processed

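The authors deposited 1 table of linear signal intensity per probe set, with 1 column for each of 12 arrays. How the authors computed or scaled these values, and on which genome build, is not given in the sources used here. Gene names came from the platform annotation: 6551 probe sets name 1 gene, 251 several and 446 none, beside 27 control probe sets.

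A floor was set at the 25th percentile of all values (225.375) before taking log2. A probe set had to name 1 gene and exceed the overall median of 475.55 on 3 or more arrays, and each gene was read from its probe set with the highest mean log2 signal. The model, fitted to the 12 arrays with limma 3.58.1 under R 4.3.3, had a mean for each time point (8 residual degrees of freedom, 6.64 prior), with Benjamini-Hochberg adjustment over 3477 genes. Single probe sets were fitted over 3815. Differences between 2 genes were tested by exact permutation over the 4 time points. An exact test of 3 against 3 arrays cannot go below p = 0.1. The number of arrays limits the precision.

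The 2 genes, the lists and the tests were chosen with earlier results of these data known. Named genes are the members, all annexins, up to 6 called genes of each list, and the 5 genes most correlated with each member; S100a6, Sgk1, Plat, Plau, Plaur, Ahnak, Fpr2, Pla2g4a, Pla2g7, Ptgs2 and the mast cell and fibroblast markers were named after their values were seen. The fits and the exact test were tested on simulated data. Alternatives covered scaling, floor, filter, probe set, variance model, array weights, a replicate block, covariates, and each array left out. Python 3.11.15, pandas 2.3.3 and matplotlib 3.10.9 made the tables and figures.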

Additional observations from a re-analysis of the deposited data

How the results depend on the processing

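The direction of the changes of Anxa1 and S100a10 at 2 hours held under every alternative run, while their calls did not. The rise of Anxa1 at 2 hours was not called with quantile normalization (0.70), no filter (0.80), array weights (0.84), a replicate block (0.80), only the 2 time points compared (0.80), the Gapdh ratio (0.87) or the muscle marker mean (0.69) as a covariate, or by probe set 161703_f_at (0.74, an alternative chosen after seeing the data), with limma adjusted p of 0.054 to 0.15. That of S100a10 was not called with quantile normalization (0.75), no filter (0.85), array weights (0.91), only the 2 time points (0.85), the Gapdh ratio (0.94) or the muscle mean (0.88), with adjusted p of 0.054 to 0.14. The fall of S100a10 from 2 hours to 3 days was not called with quantile normalization (−0.63), with the Gapdh ratio (−0.52) or the muscle mean (−0.69), and, at −0.71, with the floor at the 10th percentile, no filter, the probe set with the highest variance, every kept probe set tested, a replicate block or only the 2 time points. With the Gapdh ratio as a covariate the change of S100a10 from 2 hours to 14 days was −0.69 (not called), and that from 0 hours to 14 days turned to 0.25. Anxa1 by the probe set with the highest variance, or by 93037_i_at (chosen after seeing the data), was called at 3 days (1.12) and 14 days (0.76), and with array weights its falls from 2 hours to 3 days (−0.48) and 14 days (−0.64) were called. The cause was not tested, except that more genes or fewer arrays enter without the filter or with only the 2 time points.

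Anxa8 was the only other annexin called in any setting. From 2 hours to 14 days the count of called annexins was 0 in place of 1 with quantile normalization, no filter, the Gapdh ratio and the muscle mean, and from 2 hours to 3 days it was 1 in place of 0 with the filter at the 75th percentile, trended variance and array weights. Of the 12 pairs of a member with another annexin, 1 was called with quantile normalization, 6 with the probe set with the highest variance and 0 with permutation within replicate numbers (replicate block), in place of 2. The S100a10 minus Anxa1 difference at 2 hours turned to −0.41 with the probe set with the highest variance.

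With each array left out, the change at 2 hours ranged from 0.65 to 0.98 for Anxa1 and from 0.63 to 1.08 for S100a10. The change of S100a10 from 2 hours ranged from −0.93 to −0.48 at 3 days and from −1.16 to −0.72 at 14 days. That of Anxa1 from 3 to 14 days ranged from −0.16 to 0.0066, the latter without 14 days replicate 2. The S100a10 minus Anxa1 difference at 2 hours ranged from −0.07 to 0.15, and was −0.066 without 0 hours replicate 2 and −0.022 without 2 hours replicate 3. The count of called annexins ranged from 0 to 1 for 14 days and for 3 days against 2 hours, and that of called pairs from 0 to 2. The deviations of same-numbered arrays correlated above 0.1 in 2 of 18 pairs (median −0.066), so no pairing was seen by this measure. With 3 arrays per time point this check cannot exclude a pairing, and the labels do not state one. The replicate block changed no call of the members beyond those named. Over all results and settings, 478 kept direction and side of the threshold or a count within 1.5 times, 45 lost and 6 gained a call, 24 counts moved and 5 reversed.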
